A study of Mus musculus with 112 samples.

Results

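Nodal, Gdf3, Tdgf1, Lefty1, Lefty2 and Cer1 encode 2 ligands, a coreceptor and 3 secreted antagonists of Nodal signalling in the mouse embryo. They were followed by symbol through every count table of the series, 6 of the 25209 genes in each RNA-seq library. The libraries form 34 groups, set by genotype, by culture and by treatment. The genes were chosen by name for their place in the pathway and not by a measured value, though with earlier results of these data known. Levels are given as CPM, the count of a gene in a library scaled by the total of that library to 1000000, differences as log2 fold changes with their standard errors (SE), and a gene was said to rise or fall only where the edgeR quasi-likelihood test gave a Benjamini-Hochberg adjusted p below 0.01 over all genes tested together with an absolute log2 fold change above 1.

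All cells derived from V6.5 mouse embryonic stem cells (ESCs). Naive ESCs were kept in medium with a MEK inhibitor, a GSK inhibitor and LIF (2i/LIF) as wild type (WT, n = 11), LSD1 KO (n = 6, promoter and first exon of the LSD1 gene deleted), LSD1 CI (n = 4, LSD1 without catalytic activity), RCOR2 KO, RCOR1 KO and RCOR1/2 DKO (n = 4 each, lacking one or both of the CoREST scaffolds that hold LSD1), MLL4 KO (n = 2, lacking a histone methyltransferase of enhancers), MLL4/LSD1 DKO and MLL4KO/LSD1CI (n = 4 each). The same naive medium held LSD1Res cells, which are LSD1 KO, and DKO + LSD1 cells, which are RCOR1/2 DKO. Both carry an LSD1 transgene switched on by doxycycline (DOX) and were sampled with and without DOX (n = 4 each), and LSD1 KO cells without the transgene had DOX or none (n = 2 each). Embryoid bodies (EBs), aggregates grown from hanging drops for 6 days that form many tissues, came from WT (n = 7), LSD1 KO (n = 2), LSD1 CI (n = 4), RCOR2 KO (n = 2), RCOR1 KO (n = 4) and RCOR1/2 DKO cells (n = 4). A485 inhibits the histone acetyltransferases p300 and CBP. LSD1 KO cells with A485 were set against LSD1 KO cells with its solvent DMSO in naive ESCs, EBs, serum cells and EpiLCs (n = 2 each), beside DMSO-treated WT in EBs, serum cells and EpiLCs and DMSO-treated LSD1 CI in serum cells and EpiLCs (n = 2 each). Serum cells had spent 4 days in serum medium without 2i or LIF, and EpiLCs (epiblast-like cells) 2 days on fibronectin with 20 ng/ml Activin A, a ligand of the receptors that Nodal uses, and 12 ng/ml FGF2. More than 1 clone was made of the mutant lines, but the labels do not tie libraries to clones or cultures, so p-values measure the spread between these samples, which may be technical.

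The libraries held 17221431 to 58186717 counts (median 39018027), and the targeted genes were read first. Kdm1a, the gene of LSD1, had 0.360 to 10.3 CPM in the 32 LSD1 KO and MLL4/LSD1 DKO libraries and 107 to 269.8 in the 64 others without a transgene. Rcor1 had 2.15 to 19.9 CPM in its 16 knockout libraries against 36.4 to 91.7 in the 24 WT libraries, and Rcor2 0.674 to 53.8 in its 14 against 87.4 to 153. The 2 RCOR2 KO EB libraries were the highest of these 14, at 44.6 and 53.8 CPM, so Rcor2 RNA was present in them. Kmt2d, the gene of MLL4, was at 222 to 228 CPM in MLL4 KO, 154 to 204 in MLL4/LSD1 DKO, 197 to 398 in MLL4KO/LSD1CI and 307 to 746 in WT ESCs, so only the MLL4KO/LSD1CI libraries overlapped those of WT ESCs. In LSD1Res cells Kdm1a was 10.8 to 38.1 CPM without and 979.7 to 2253 with DOX, and in DKO + LSD1 cells it reached 1829.8 to 6038 with DOX. The summed CPM of 6 naive ESC markers was 1923 to 3072 in WT ESCs and 63.5 to 358 in WT EBs, that of 4 formative and primed epiblast markers 2504 to 2514 in WT EpiLCs and 102 to 311 in WT ESCs. In ESCs, 9 libraries (WT 1 to 3 and all 6 untreated LSD1 KO) had no count on 101 genes of unplaced contigs. Every other library had at least 4241. The labels do not say why, and the cause was not tested. The difference is called alignment here, and a term for it stood in each fit that holds these 9 libraries. The other 8 WT ESC libraries were divided into 3 clusters (4, 5, 8 and 9, then 6 and 7, then 10 and 11) across which both Lefty genes varied. The number of clusters was not tested.

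Nodal and Gdf3 are TGF-beta family ligands that signal through activin receptors and the transcription factors SMAD2, SMAD3 and FOXH1, and Tdgf1 (Cripto) is a membrane coreceptor that both use. Lefty1 and Lefty2 are secreted inhibitors that the pathway itself switches on, and Cer1 (Cerberus-like) is a secreted antagonist made by anterior visceral endoderm and definitive endoderm. In the embryo, Nodal holds the epiblast in a pluripotent state and then patterns it and directs cells to mesendoderm, and in cultured ESCs the ligands, Tdgf1 and the Lefty genes are known as genes of the undifferentiated state.

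On build mm9, Nodal lies on chromosome 10 (60880720 to 60888086, plus strand, 3 exons), Gdf3 on chromosome 6 (122555421 to 122560105, minus strand, 2 exons), Tdgf1 on chromosome 9 (110842112 to 110848662, minus strand, 6 exons) and Cer1 on chromosome 4 (82527655 to 82531055, minus strand, 2 exons). Lefty2 (182823239 to 182829238) and Lefty1 (182865153 to 182868532) are neighbours on the plus strand of chromosome 1 with 4 exons each. The pair is close in sequence: 1251 of 1457 aligned bases of the spliced exons (85.9%) and 176 of 213 aligned bases of the promoters (82.6%) are identical. Of 1522 stretches of 100 bases of spliced Lefty1, 73 (4.80%) also occur in Lefty2. A read that lies wholly within such a stretch cannot be assigned, unless its mate reaches bases that differ. The same holds for 11 of 141 tiles of 100 bases of Tdgf1 (7.80%), which match equally well elsewhere in the genome, 7 of 124 of Lefty1 (5.65%) and 7 of 209 of Lefty2 (3.35%). Nodal, Gdf3 and Cer1 had no such tile.

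The 250 bases before the annotated start are shown for Lefty1, Lefty2 and Tdgf1, the 3 members that fell most with A485 in serum cells. The Lefty genes are known targets of the SMAD and FOXH1 factors. The windows are RefSeq promoters placed on mm9, written 5′ to 3′ on the strand of the gene, with capitals for matches on either strand to the SMAD motif CAGAC or the FOXH1 core TGTNNATT.
Lefty1 (chr1:182864903-182865152, plus strand): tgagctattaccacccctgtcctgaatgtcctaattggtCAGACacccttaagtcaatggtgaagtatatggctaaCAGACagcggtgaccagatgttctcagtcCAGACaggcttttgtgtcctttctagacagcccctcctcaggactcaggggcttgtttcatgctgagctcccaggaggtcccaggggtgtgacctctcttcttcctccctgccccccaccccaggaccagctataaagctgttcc
Lefty2 (chr1:182822989-182823238, plus strand): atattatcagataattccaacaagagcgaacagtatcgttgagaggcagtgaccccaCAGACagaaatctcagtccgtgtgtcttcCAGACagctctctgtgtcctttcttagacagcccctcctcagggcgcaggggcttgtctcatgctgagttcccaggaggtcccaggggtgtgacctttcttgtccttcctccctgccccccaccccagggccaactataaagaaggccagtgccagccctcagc
Tdgf1 (chr9:110848663-110848912, minus strand): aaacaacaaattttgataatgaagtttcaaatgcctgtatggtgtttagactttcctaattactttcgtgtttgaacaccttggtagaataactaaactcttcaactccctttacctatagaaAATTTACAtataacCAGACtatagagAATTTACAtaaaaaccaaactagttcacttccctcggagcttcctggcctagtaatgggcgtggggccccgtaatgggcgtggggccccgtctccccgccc
The Lefty1 window holds 3 matches to CAGAC and the Lefty2 window 2, while Tdgf1 has 2 matches to the FOXH1 core, read on its strand as AATTTACA, around 1 CAGAC. Gdf3 holds 2 matches to CAGAC and Cer1 1, and Nodal has neither motif in this window. CAGAC occurs in 10226 of 24943 promoters of the same length (41.0%) and the FOXH1 core in 2460 (9.86%). The 2 motifs share no overlapping match here, and a match is a description of letters, not a binding site.

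The ligands, the coreceptor and the Lefty genes were abundant in WT naive ESCs and Cer1 was near 0. In WT EBs those 5 were lower and Cer1 was higher, though the median of Tdgf1 stayed above that of Cer1. Over the 11 WT ESC libraries, the lowest, median and highest CPM of Nodal were 35.0, 44.9 and 68.3, and over the 7 WT EB libraries 1.42, 4.87 and 15.3. No library of one culture reached the range of the other, and Nodal fell (log2 fold change −3.11 ± 0.27, adjusted p = 7.2e-12). Gdf3 went from 65.9, 107 and 142 CPM in ESCs to 0.446, 1.12 and 5.11 in EBs (−6.30 ± 0.32, adjusted p = 2.9e-17). Tdgf1 went from 273, 457 and 647 CPM to 13.99, 64.0 and 73.8 (−3.50 ± 0.30, adjusted p = 6.6e-12). The 2 antagonists of the Lefty family followed the ligands, again without overlap between the cultures. Lefty1 had 10.6, 71.1 and 115 CPM in ESCs and 0.112, 1.86 and 5.58 in EBs (−4.51 ± 0.55, adjusted p = 1.4e-08). Lefty2 had 91.3, 281 and 494 against 0.167, 3.41 and 6.98 (−6.47 ± 0.49, adjusted p = 4.7e-13). Cer1 was the member that rose in EBs, to 18.6, 34.3 and 111 CPM, from a total of 2 counts in the 11 WT ESC libraries, too few to give a fold change (adjusted p = 1.1e-13). All 6 members were called, 5 down and 1 up, where 36.1% of 18493 genes tested were called in either direction. In bulk RNA, fewer cells of a type and less RNA per cell cannot be told apart.

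**Figure D1:**
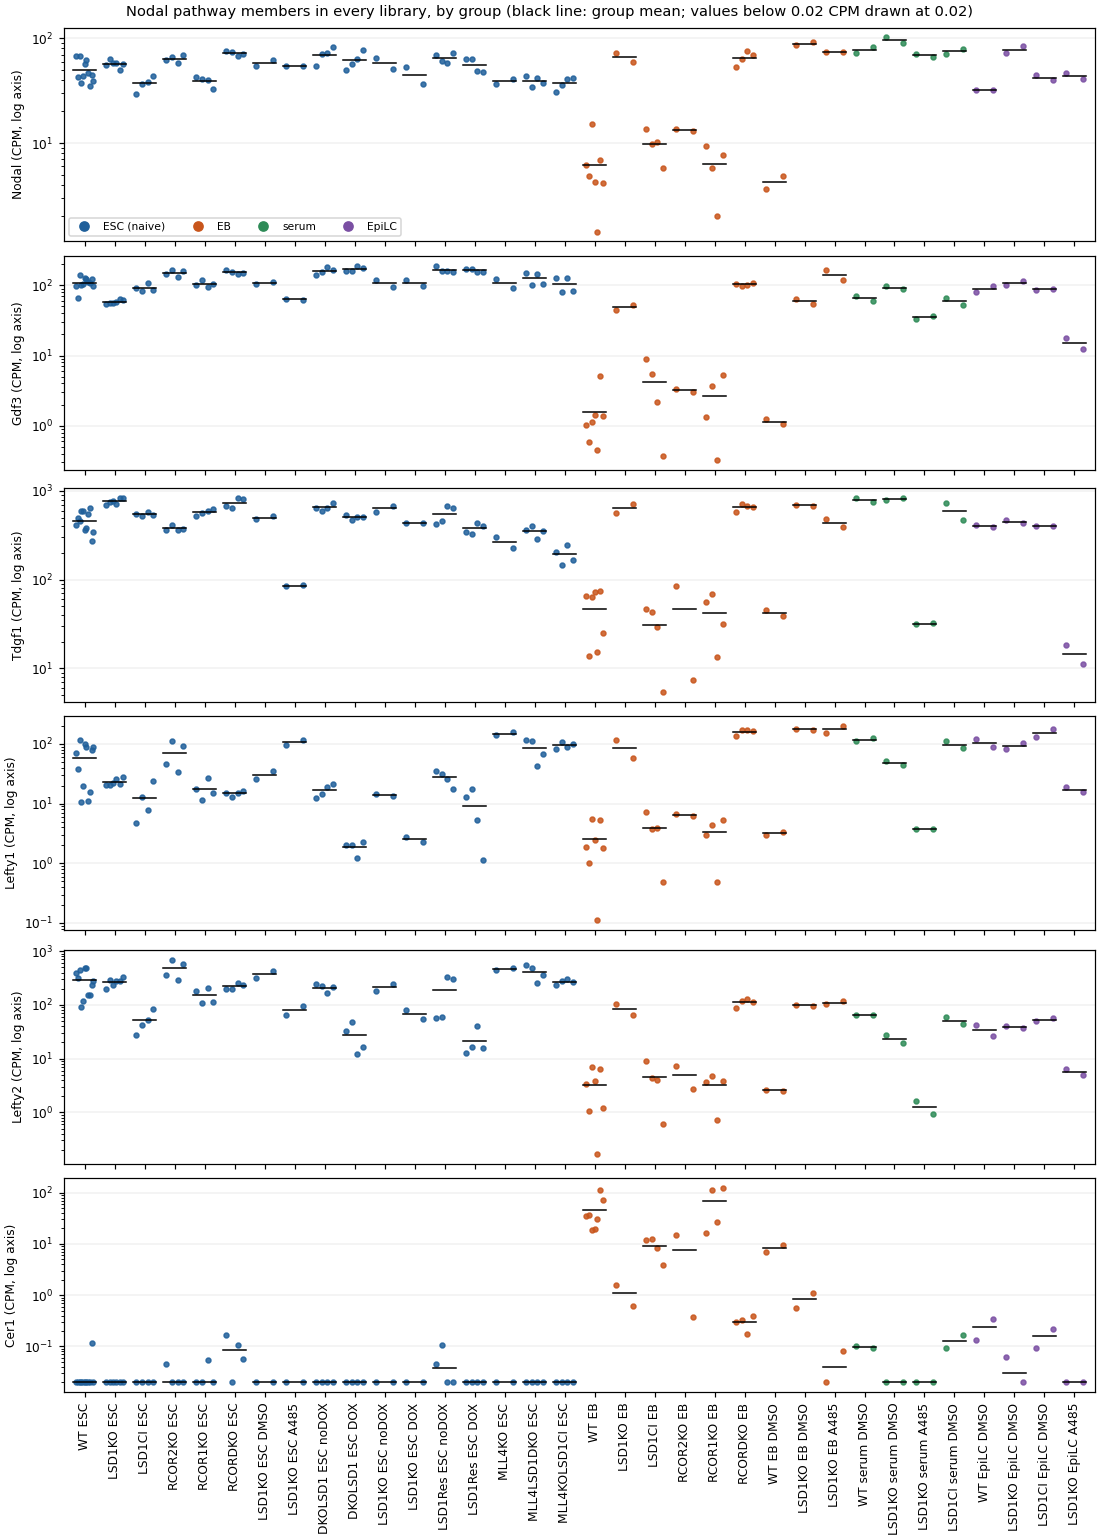
CPM of the 6 members (log axis, 1 panel each) in every library, by group and coloured by culture, with a black line at the group mean and values below 0.02 CPM drawn at 0.02. Nodal, Gdf3, Tdgf1, Lefty1 and Lefty2 sit low in WT EBs and high in LSD1 KO and RCOR1/2 DKO EBs, and Cer1 is above 1 CPM only in EB libraries.

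In WT serum cells and EpiLCs most members lay closer to their ESC levels. WT serum cells had 71.7 and 83.3 CPM of Nodal, 69.6 and 60.2 of Gdf3, 824 and 748 of Tdgf1 and 111.5 and 125 of Lefty1. None of the 6 members was called against WT ESCs by edgeR (4 had an unadjusted p below 0.05, and DESeq2 called 1), where 21.7% of all genes were. Lefty2 had 63.9 and 63.7 CPM, below every WT ESC library (−2.03 ± 0.65, adjusted p = 0.012). In WT EpiLCs Lefty2 fell, to 42.5 and 26.0 CPM (−2.84 ± 0.69, adjusted p = 0.0014). Cer1 was called up on 5 and 17 counts in the 2 EpiLC libraries, against 2 in total over 11 WT ESC libraries. It passed the filter only in fits that hold EBs, and counts so near 0 do not establish a rise. Lefty1 at 123 and 87.9 CPM, Nodal at 32.3 and 31.8, Gdf3 at 79.4 and 96.8 and Tdgf1 at 417 and 389 were not called, where 17.5% of genes were called. The Lefty2 call in EpiLCs was lost without WT EpiLC library 1 (−3.21, adjusted p = 0.018) or library 2 (−2.55, adjusted p = 0.051), and the Cer1 call without library 2 (adjusted p = 0.15). Serum cells and EpiLCs also had DMSO and WT ESCs did not, so culture and solvent cannot be told apart.

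The 5 members that fell in WT EBs were high in EBs without LSD1, and Cer1 was low. In the 2 LSD1 KO EB libraries Nodal had 73.1 and 58.9 CPM, against 1.42 to 15.3 in WT EBs (3.44 ± 0.46, adjusted p = 1.1e-05). Gdf3 had 45.1 and 52.2 CPM against 0.446 to 5.11 (4.92 ± 0.70, adjusted p = 2.2e-05). Tdgf1 had 569.9 and 719 against 13.99 to 73.8 (3.78 ± 0.67, adjusted p = 0.00020). Both ligands and the coreceptor were thus higher in each LSD1 KO library than in any WT EB. Lefty1 had 115 and 58.0 CPM against 0.112 to 5.58 (5.07 ± 0.66, adjusted p = 8.6e-06) and Lefty2 105 and 64.6 against 0.167 to 6.98 (4.69 ± 0.69, adjusted p = 2.8e-05). Cer1, made by endoderm, went the other way, with 1.55 and 0.614 CPM against 18.6 to 111 (−5.38 ± 1.22, adjusted p = 0.0018). All 6 members were called, where 13.7% of 17928 genes tested were. The Cer1 call was lost without LSD1 KO EB library 1 (−6.19, adjusted p = 0.020) or library 2 (−4.86, adjusted p = 0.045), and the Tdgf1 call with the replicate number as a block (4.44, adjusted p = 0.26), where the number pairs no samples.

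The same 6 calls were made in a separate set of DMSO-treated EBs, 2 libraries a genotype, where 18.8% of genes were called. Nodal had 86.1 and 92.0 CPM in LSD1 KO against 3.64 and 4.87 in WT (4.31 ± 0.16). Gdf3 had 62.9 and 54.9 against 1.23 and 1.06 (5.59 ± 0.21), and Tdgf1 701 and 677 against 45.1 and 38.5 (3.96 ± 0.15). Each of these genes differed between genotypes by far more than between the 2 libraries of a genotype. Lefty1 had 177 and 174 CPM in LSD1 KO against 2.98 and 3.39 in WT (5.70 ± 0.18), and Lefty2 99.0 and 97.0 against 2.59 and 2.55 (5.17 ± 0.15). Cer1 fell from 7.01 and 9.42 to 0.558 and 1.12 CPM (−3.38 ± 0.44). The adjusted p-values ran from 2.1e-09 for both Lefty genes to 8.4e-05 for Cer1.

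In RCOR1/2 DKO EBs, which lack both CoREST scaffolds, the 2 ligands, the coreceptor and both Lefty genes rose and Cer1 fell against WT EBs, the same 7 libraries as above. Nodal had 53.8, 63.2, 75.7 and 68.8 CPM (3.40 ± 0.41, adjusted p = 6.0e-07), Gdf3 105, 97.8, 101 and 107 (5.97 ± 0.67, adjusted p = 2.4e-07) and Tdgf1 571, 706, 668 and 667 (3.77 ± 0.60, adjusted p = 1.9e-05). Lefty1 had 137, 173, 169.9 and 168 CPM (5.94 ± 0.63, adjusted p = 1.1e-07) and Lefty2 88.6, 118, 129 and 111.9 (5.06 ± 0.63, adjusted p = 1.1e-06). Cer1 had 0.300, 0.332, 0.176 and 0.397 CPM, from 6 to 14 counts a library (−7.25 ± 1.03, adjusted p = 5.1e-06). Again all 6 were called, where 26.4% of genes were, and no library overlapped WT. Here and in the comparisons above, the share of all genes without overlap was not counted.

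EBs that kept LSD1 protein without its activity, or 1 of the 2 scaffolds, did not show these calls. In LSD1 CI EBs Nodal had 13.7, 9.73, 10.1 and 5.75 CPM (0.73 ± 0.41), Gdf3 8.94, 5.51, 2.17 and 0.369 (1.43 ± 0.64), Tdgf1 46.2, 42.8, 29.1 and 5.44 (−0.58 ± 0.61) and Lefty1 7.22, 3.76, 3.94 and 0.492 (0.61 ± 0.62). Their ranges overlapped those of WT EBs, as did Lefty2 at 8.85, 4.28, 4.07 and 0.615 (0.47 ± 0.63). Cer1 at 11.9, 12.7, 8.34 and 3.84 CPM lay below every untreated WT EB (−2.27 ± 0.71, adjusted p = 0.042). DMSO-treated WT EBs, at 7.01 and 9.42 CPM, lay inside this LSD1 CI range. The edgeR test called 0 of 6 members (2 at an unadjusted p below 0.05, 0 by DESeq2), where 2.54% of genes were called. Set directly against LSD1 CI, LSD1 KO EBs had higher Nodal (2.71 ± 0.54, adjusted p = 0.00090), Gdf3 (3.49 ± 0.82, adjusted p = 0.0032), Tdgf1 (4.36 ± 0.82, adjusted p = 0.00055), Lefty1 (4.46 ± 0.80, adjusted p = 0.00035) and Lefty2 (4.22 ± 0.83, adjusted p = 0.00080). Cer1 differed by −3.11 ± 1.13 (adjusted p = 0.038), so 5 of 6 were called where 11.4% of genes were. Without LSD1 KO EB library 1 the calls of Nodal (2.56, adjusted p = 0.011) and Gdf3 (3.61, adjusted p = 0.013) were lost, as was that of Gdf3 without LSD1 KO library 2 (3.40, adjusted p = 0.021) or LSD1 CI library 3 (3.28, adjusted p = 0.011).

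In RCOR1 KO EBs the ranges of the members overlapped those of WT EBs, with log2 fold changes from −0.17 ± 0.60 for Tdgf1 to 0.70 ± 0.66 for Gdf3. Of the 6 members edgeR called 0 (0 at an unadjusted p below 0.05, 0 by DESeq2), where 0.00558% of genes were called, which is 1 gene. Their Cer1 was 16.5, 110.3, 27.0 and 123 CPM. The 2 RCOR2 KO EB libraries, with Rcor2 at 44.6 and 53.8 CPM, differed from each other, with 85.3 and 7.39 CPM of Tdgf1 and 14.7 and 0.367 of Cer1. Their Nodal was 13.7 and 12.9 CPM (1.07 ± 0.50), Gdf3 3.36 and 3.02 (0.93 ± 0.82), Lefty1 6.75 and 6.12 (1.25 ± 0.74) and Lefty2 7.21 and 2.74 (0.53 ± 0.79). Here too 0 of 6 were called by edgeR (2 at an unadjusted p below 0.05, 0 by DESeq2), against 5.28% of all genes.

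**Figure D2:**
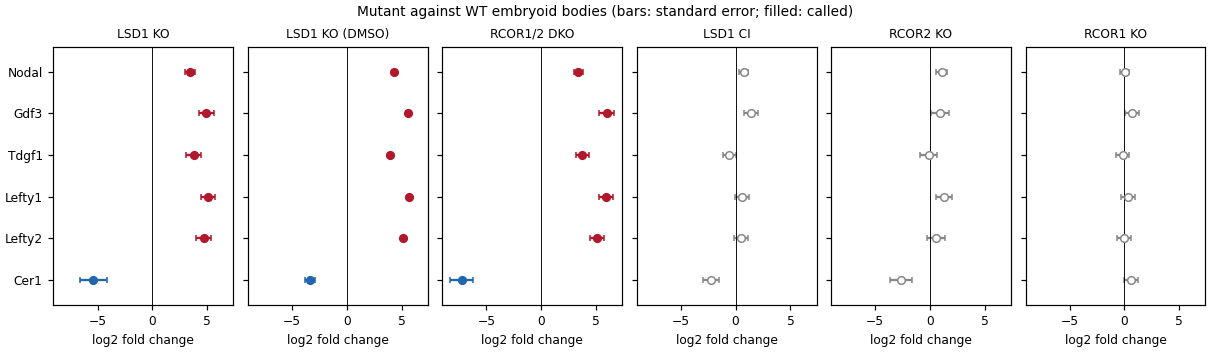
Log2 fold change of the 6 members in mutant against WT EBs (x axis, bars are SE), 1 panel per mutant, with filled points for genes called by edgeR. In LSD1 KO, DMSO-treated LSD1 KO and RCOR1/2 DKO EBs 5 members lie right of 0 and Cer1 left of it, and no point is filled for LSD1 CI, RCOR2 KO or RCOR1 KO.

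For the 5 members other than Cer1, the response to loss of LSD1 in EBs differed from that in naive ESCs. The difference of the 2 responses, fitted in 1 model on cells without DMSO in both cultures, was 3.51 ± 0.46 for Nodal, 5.70 ± 0.47 for Gdf3, 3.03 ± 0.51 for Tdgf1, 6.75 ± 0.87 for Lefty1 and 5.21 ± 0.72 for Lefty2. Adjusted p-values ran from 2.4e-10 for Gdf3 to 3.4e-05 for Tdgf1, and 5 of 5 were called where 13.8% of genes were. For Cer1, at a count of 0 in all 6 LSD1 KO ESC libraries and 2 in total over 11 WT ESC libraries, edgeR gave no usable estimate. DESeq2 called 6 of 6 members, but such counts give no response of Cer1 in ESCs. Its Cer1 call therefore says nothing of a difference between the cultures. The matching differences for serum cells, which had DMSO, lay between −0.87 ± 0.88 (Lefty2) and 1.34 ± 0.56 (Gdf3), with 0 of 5 called by edgeR (1 at an unadjusted p below 0.05, 0 by DESeq2, with 3.56% of all genes called). Those for EpiLCs lay between −0.58 ± 0.63 (Tdgf1) and 1.50 ± 1.05 (Lefty1), also with 0 of 5 called (1 and 0 by the same counts, 2.53% of all genes).

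Other genes of the pathway moved in both directions in these EBs. They were 39 genes in 5 lists of ligands and processing enzymes, coreceptors and receptors, antagonists and feedback inhibitors, transducers and targets. In LSD1 KO EBs 7 of 38 tested rose and 7 fell, with a median log2 fold change of −0.17 against 0.019 over all genes. Among those that rose were Fst, the activin-binding follistatin (4.70 ± 0.42), and Pcsk6, a convertase that cleaves the Nodal precursor (2.09 ± 0.23). In RCOR1/2 DKO EBs 5 rose and 14 fell (median −0.67 against −0.032), among them Pcsk6 up (3.32 ± 0.19), the receptor gene Acvr2a down (−1.10 ± 0.07) and the transducer Smad3 down (−1.80 ± 0.14). Of the 10 targets, 4 rose and 2 fell in LSD1 KO EBs, and 1 rose and 6 fell in RCOR1/2 DKO EBs. DMSO-treated LSD1 KO EBs had 9 of 37 up and 7 down, led by Nanog (3.90 ± 0.14), the mesoderm factor T (3.92 ± 0.15) and Cfc1, the Cripto-related coreceptor (−6.31 ± 0.26). In RCOR2 KO EBs 6 of 38 fell and 0 rose, among them the endoderm genes Foxa2 (−3.56 ± 0.62) and Sox17 (−3.93 ± 0.69). LSD1 CI and RCOR1 KO EBs had 0 of 38 called by edgeR (11 and 0 at an unadjusted p below 0.05, 1 and 0 by DESeq2). In WT EBs against WT ESCs 19 of 37 rose and 3 fell, 9 of the 10 targets among the former. The shares of all genes called either way were 13.7% in LSD1 KO, 26.4% in RCOR1/2 DKO and 18.8% in DMSO-treated LSD1 KO EBs. They were 5.28% in RCOR2 KO, 2.54% in LSD1 CI and 0.00558% in RCOR1 KO EBs, and 36.1% in WT EBs against WT ESCs.

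Marker sums moved with the members in EBs. General pluripotency genes (4 markers) summed to 453 to 802 CPM in WT EBs, 1039.5 to 1252 in LSD1 KO, 1296 to 1505 in RCOR1/2 DKO and 441 to 712 in LSD1 CI. The 4 definitive endoderm markers, of the tissue that makes Cer1, summed to 169 to 314 CPM in WT, 27.8 to 33.1 in LSD1 KO, 4.07 to 5.90 in RCOR1/2 DKO and 219.6 to 268 in LSD1 CI. None of these 4 was at 0 in all libraries of a group, though in RCOR1/2 DKO only 1 had a mean of at least 1 CPM. The 4 anterior visceral endoderm markers, of the other Cer1 tissue, summed to 187 to 379 CPM in WT, 106 to 119.6 in LSD1 KO and 88.7 to 103 in RCOR1/2 DKO. The 5 mesendoderm markers parted the mutants, with 82.8 to 266 CPM in WT, 718 to 877 in LSD1 KO and 16.4 to 22.2 in RCOR1/2 DKO. Naive markers summed to 69.0 to 90.4 CPM in LSD1 KO EBs, inside the range of WT EBs, and to 287 to 369.7 in RCOR1/2 DKO EBs, where 4 of the 6 rose. In RCOR2 KO EBs 3 of the 4 definitive endoderm markers fell, with sums of 19.1 to 60.5 CPM, as did 4 of 8 primitive and visceral endoderm markers (47.3 to 54.3 CPM against 114 to 422 in WT). The part of the cell type makeup in the members' differences was not tested.

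In naive ESCs both Lefty genes varied among the WT libraries themselves. Lefty1 was 71.1, 37.9, 115, 10.6, 19.7, 98.1, 89.1, 10.9, 15.5, 79.7 and 89.5 CPM in WT libraries 1 to 11, and Lefty2 392, 314, 454, 91.3, 119, 494, 484.9, 154, 153, 231 and 281. Libraries 4, 5, 8 and 9 lay at 10.6 to 19.7 for Lefty1 and 91.3 to 154 for Lefty2, below the other 7 for both genes. Comparisons of the Lefty genes with WT ESCs are therefore also given against some of the WT libraries alone, an alternative chosen after the data were seen. Nodal (35.0 to 68.3 CPM) and Gdf3 (65.9 to 142) spread less, and Tdgf1 had its highest 4 values (273 to 647 over all 11) in libraries 4, 5, 8 and 9.

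In LSD1 KO ESCs Lefty1 was 20.6, 20.9, 22.1, 26.3, 21.4 and 27.5 CPM, below the 3 WT libraries of the same alignment (37.9 to 115), and fell (−1.74 ± 0.54, adjusted p = 0.0084). All of these values lay above WT libraries 4, 5, 8 and 9 of the other alignment (10.6 to 19.7 CPM). Lefty2 was 195, 288, 233, 281, 281 and 335 CPM and was not called (−0.58 ± 0.38). Gdf3 at 53.9 to 64.4 CPM lay below every WT library without reaching the fold threshold (−0.85 ± 0.16, adjusted p = 2.3e-05), and Tdgf1 at 691 to 839 lay above every one (0.68 ± 0.18, adjusted p = 0.0023). Other naive LSD1 KO cells, with DMSO or without DOX, had Gdf3 inside the WT range, at 103 to 111 and 95.2 to 121 CPM. Their Tdgf1 was 483 to 520 and 584 to 684 CPM. Those libraries had the other alignment and were not in this fit. Nodal was 50.1 to 63.0 CPM, inside the WT range. Lefty1 was the 1 of 5 members called where 13.3% of 17603 genes were, and this call was lost under 5 alternatives that kept every library (adjusted p up to 0.048).

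LSD1 CI ESCs had the lowest mean Lefty2 of the untreated naive lines, from 27.4, 43.1, 51.7 and 83.0 CPM, below every WT library (−2.32 ± 0.38, adjusted p = 5.8e-05). Lefty1 was 4.72, 12.8, 7.69 and 24.4 CPM (−2.07 ± 0.54, adjusted p = 0.0091). Both were called, where 3.91% of genes were. Against WT libraries 4, 5, 8 and 9 alone the Lefty1 difference was −0.19 (adjusted p = 0.82), while the Lefty2 call was still made. The Lefty1 call was also lost without LSD1 CI library 1, 2 or 3 (adjusted p up to 0.043). A fit of LSD1 CI and WT only called neither, with −2.08 (adjusted p = 0.14) for Lefty1 and −2.33 (adjusted p = 0.017) for Lefty2. LSD1 KO against LSD1 CI gave 0 called members by edgeR (2 at an unadjusted p below 0.05, and DESeq2 called 1, Lefty2), where 8.80% of genes were called. Lefty2 differed by 1.74 ± 0.53 there (adjusted p = 0.013), and was called without LSD1 CI library 4 (2.07, adjusted p = 0.0047).

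In RCOR1/2 DKO ESCs Lefty1 was 15.2, 13.1, 14.9 and 16.1 CPM and was called (−1.92 ± 0.54, adjusted p = 0.0035, 18.3% of genes called), but these values lay inside the range of WT libraries 4, 5, 8 and 9, against which the difference was −0.01. The call was also lost without any one of the 4 DKO libraries, with adjusted p from 0.010 to 0.013. RCOR1 KO had Lefty1 at 17.6, 11.6, 26.5 and 14.8 CPM (−1.57 ± 0.53), and 0 of 5 members were called by edgeR (2 at an unadjusted p below 0.05, 0 by DESeq2), where 0.0227% of genes were. RCOR2 KO had the highest mean Lefty2 of the naive lines, from 365, 689, 288 and 581 CPM, with a difference of 1.01 ± 0.32 (adjusted p = 0.020). Its Nodal was 62.0, 66.4, 58.5 and 69.3 CPM (0.57 ± 0.13) and its Gdf3 144, 164, 132 and 158 (0.50 ± 0.14). Again 0 of 5 were called by edgeR (3 at an unadjusted p below 0.05, 0 by DESeq2), where 4.30% of genes were.

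**Figure D3:**
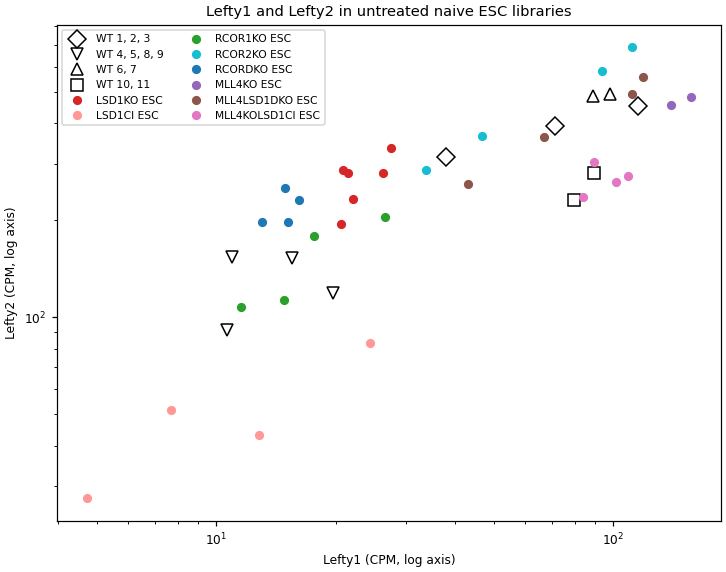
Lefty1 (x axis) against Lefty2 (y axis), both as CPM on log axes, in each untreated naive ESC library, with open symbols for WT libraries by cluster and filled circles for mutants. WT libraries 4, 5, 8 and 9 lie at 10.6 to 19.7 CPM of Lefty1, beside RCOR1 KO and RCOR1/2 DKO, and the 4 LSD1 CI libraries lie below every WT library in Lefty2.

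Among the lines without MLL4, Tdgf1 was the only member called against all of WT, and in MLL4KO/LSD1CI ESCs only. It was 207, 147, 248 and 167 CPM in MLL4KO/LSD1CI ESCs, below every WT library (−1.30 ± 0.16, adjusted p = 3.9e-08), and the 1 of 5 members called where 13.2% of genes were. Against WT libraries 10 and 11 alone, at 273 to 340 CPM, it differed by −0.60 and was not called. Tdgf1 in MLL4/LSD1 DKO differed from these libraries by 0.23, so it was not lower there. In MLL4 KO it was 300.2 and 227 CPM (−0.90 ± 0.21, adjusted p = 0.0013, called without library 1 at −1.10) and in MLL4/LSD1 DKO 364, 406, 287 and 349 (−0.46 ± 0.16). Both MLL4 KO libraries had more Lefty1 than any WT library, 139 and 157 CPM, but the test missed the threshold (1.45 ± 0.57, adjusted p = 0.056). Against WT libraries 4, 5, 8 and 9 alone, Lefty1 and Lefty2 were called up in MLL4 KO (3.33 and 1.81), MLL4/LSD1 DKO (2.54 and 1.65), MLL4KO/LSD1CI (2.75 and 1.06) and RCOR2 KO (2.46 and 2.03). With WT libraries 6 and 7 alone, or 10 and 11 alone, neither Lefty gene was called in any of these lines. Lefty2 in MLL4/LSD1 DKO then differed by −0.37 from libraries 6 and 7, in the other direction. MLL4 KO and MLL4/LSD1 DKO against all of WT gave 0 of 5 called members each by edgeR (2 at an unadjusted p below 0.05 in each, 0 by DESeq2), where 10.4% and 12.3% of genes were called. Against MLL4 KO, no member was called by edgeR in MLL4/LSD1 DKO or MLL4KO/LSD1CI (0 at an unadjusted p below 0.05 and 0 by DESeq2 in each, with 8.56% and 0.142% of genes called). MLL4/LSD1 DKO against MLL4KO/LSD1CI also gave 0 of 5 (1 at an unadjusted p below 0.05, 0 by DESeq2, 8.50% of genes called), and that 1 was Tdgf1 (0.84 ± 0.18, adjusted p = 0.00039).

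Of 35 genes of the pathway lists tested in naive ESCs, 5 fell in MLL4 KO, 4 in MLL4/LSD1 DKO and 5 in MLL4KO/LSD1CI, where 10.4%, 12.3% and 13.2% of all genes were called, and 0 rose (18 to 20 of 35 had an unadjusted p below 0.05, and DESeq2 called 5, 5 and 6). Foxh1, the DNA-binding partner of the SMADs, fell in each of them (−1.25 ± 0.19, −1.16 ± 0.14 and −1.42 ± 0.14) and in LSD1 KO (−1.46 ± 0.14), all against the same WT libraries. The other untreated lines had 0 to 2 genes of the lists up and 0 to 2 down.

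In each line with the LSD1 transgene 1 Lefty gene fell with DOX and the other had lower values, as both had in the control line without the transgene. In DKO + LSD1 cells Lefty1 went from 12.2, 14.6, 19.0 and 21.4 CPM to 2.00, 2.05, 1.22 and 2.30 with DOX (−3.15 ± 0.55, adjusted p = 0.0032). Lefty2 went from 244, 222, 165 and 212 to 32.7, 48.9, 12.2 and 16.5 (−2.95 ± 0.61, adjusted p = 0.013), so neither gene overlapped and only Lefty1 was called, where 0.332% of 16862 genes were. The Lefty1 call was lost without library 4 of the cells without DOX or any 1 of the 4 DOX libraries (adjusted p from 0.012 to 0.018). In LSD1Res cells Lefty2 went from 57.1, 59.2, 330.4 and 303 CPM to 12.5, 16.2, 39.7 and 15.7 (−3.11 ± 0.61, adjusted p = 0.0037). Libraries with the same number moved together there, and with the number as a block the call was lost (−2.83, adjusted p = 0.039). It was also lost without library 3 or 4 of the cells without DOX, or library 1, 2 or 4 with DOX (adjusted p from 0.013 to 0.017). Lefty1 went from 35.3, 31.4, 25.7 and 17.8 to 12.8, 17.5, 5.25 and 1.13 CPM and was not called (−1.53 ± 0.50, adjusted p = 0.054), where 2.37% of genes were.

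LSD1 KO cells without the transgene had 14.4 and 13.3 CPM of Lefty1 without DOX and 2.77 and 2.30 with it, a difference of −2.54 ± 0.75 that was not called (adjusted p = 0.37). Their Lefty2 was 185 and 247 CPM without and 82.0 and 54.1 with DOX (−1.75 ± 0.82), and Tdgf1 584 and 684 without and 439.6 and 434 with it (−0.63 ± 0.17). Each of the 3 genes was lower in both DOX libraries, though edgeR called 0 of 5 members (3 at an unadjusted p below 0.05, 0 by DESeq2), where 0.0178% of genes were called. The response of Lefty1 in DKO + LSD1 cells minus that in LSD1 KO cells was −0.61 ± 0.89, and that of Lefty2 in LSD1Res cells minus LSD1 KO −1.36 ± 0.98 (adjusted p = 0.66). These data do not separate the response to the transgene from that to DOX for either Lefty gene. Nodal and Gdf3 were not called in any of the 3 lines, with differences from −0.44 (Nodal in LSD1 KO) to 0.098 (Gdf3 in DKO + LSD1). Of the pathway lists, Fst (1.41 ± 0.27) and the activin subunit gene Inhbb (1.27 ± 0.25) rose in LSD1Res, and Fst rose in DKO + LSD1 (1.72 ± 0.27).

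In serum cells loss of LSD1 lowered the Lefty genes. Lefty1 had 51.5 and 43.7 CPM in LSD1 KO against 111.5 and 125 in WT (−1.32 ± 0.13, adjusted p = 7.8e-05). Lefty2 had 27.2 and 19.7 against 63.9 and 63.7 (−1.45 ± 0.23, adjusted p = 0.0030). These were the 2 of 5 members called, where 9.55% of 16296 genes were. Gdf3 (96.9 and 88.0 against 69.6 and 60.2 CPM, 0.50 ± 0.12) and Nodal (102 and 90.6 against 71.7 and 83.3, 0.31 ± 0.09) were under the fold threshold, and Tdgf1 overlapped WT. The Lefty2 call was lost without WT library 1 or 2 or LSD1 KO library 2 (adjusted p from 0.014 to 0.016). LSD1 CI serum cells had 110.2 and 85.1 CPM of Lefty1 and 58.3 and 43.4 of Lefty2, and 0 of 5 members were called by edgeR (0 at an unadjusted p below 0.05, 0 by DESeq2), where 2.99% of genes were. LSD1 KO against LSD1 CI called Lefty1 (−1.08 ± 0.13, adjusted p = 0.00091) and not Lefty2 (−1.15 ± 0.23, adjusted p = 0.018), 1 of 5 where 2.48% of genes were. Of the pathway lists 0 of 36 were called by edgeR in LSD1 KO or LSD1 CI serum cells against WT (18 and 11 at an unadjusted p below 0.05, 2 and 1 by DESeq2). The Lefty1 difference fell under the fold threshold without LSD1 KO library 2 (−0.95) or LSD1 CI library 1 (−0.84), and without LSD1 CI library 2 Lefty2 was called (−1.37, adjusted p = 0.0092). Markers moved with the genotype too. Naive ESC markers summed to 37.4 to 47.2 CPM in WT, 249 to 332 in LSD1 KO and 104 to 130.2 in LSD1 CI serum cells, with 5 and 4 of 6 up in the mutants. The 4 neural markers summed to 259.6 to 315, 112.4 to 138 and 174 to 218 CPM, and the 4 cardiac mesoderm markers to 4.04 to 4.35, 29.3 to 33.0 and 20.0 to 39.8. None of these markers was at 0 in all libraries of a group, and their part in the Lefty differences was not tested.

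In EpiLCs, where Activin A is supplied, Nodal was the member that rose without LSD1. It had 71.6 and 83.5 CPM in LSD1 KO, 44.7 and 39.7 in LSD1 CI and 32.3 and 31.8 in WT. The LSD1 KO difference was 1.24 ± 0.10 (adjusted p = 1.7e-07), the 1 of 5 called where 9.49% of 15986 genes were. For LSD1 CI it was 0.41 ± 0.10, under the fold threshold, with 0 of 5 called by edgeR (2 at an unadjusted p below 0.05, 0 by DESeq2) where 2.15% of genes were. Without WT library 1 Lefty2 was called there (1.03). LSD1 KO minus LSD1 CI was 0.82 ± 0.09, also under the threshold, with 0 of 5 called (3 at an unadjusted p below 0.05, 0 by DESeq2) where 3.98% of genes were. Lefty1 at 81.2 and 103 CPM, Lefty2 at 40.2 and 37.7, Gdf3 at 103 and 115 and Tdgf1 at 465 and 436 in LSD1 KO differed from WT by at most 0.26 log2 units. Of the pathway lists 3 of 34 rose and 0 fell in LSD1 KO EpiLCs (19 had an unadjusted p below 0.05), namely Eomes (1.65 ± 0.12), Nanog (1.86 ± 0.22) and Sox17 (2.94 ± 0.65). Formative markers summed to 1474 to 1486 CPM in LSD1 KO EpiLCs and 2504 to 2514 in WT, and their part in the Nodal difference was not tested.

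A485 lowered the coreceptor, both Lefty genes and Gdf3 in LSD1 KO serum cells and EpiLCs. In serum cells Tdgf1 went from 794 and 828.9 CPM with DMSO to 31.4 and 32.3 with A485 (−4.75 ± 0.24, adjusted p = 4.0e-05). Lefty1 went from 51.5 and 43.7 to 3.77 and 3.82 (−3.73 ± 0.16, adjusted p = 3.1e-07) and Lefty2 from 27.2 and 19.7 to 1.62 and 0.918 (−4.25 ± 0.31, adjusted p = 4.8e-05). Gdf3 also fell, from 96.9 and 88.0 to 33.4 and 36.3 (−1.49 ± 0.12, adjusted p = 9.3e-06). Nodal was the member that stayed under the fold threshold, with 102 and 90.6 CPM with DMSO and 71.1 and 66.0 with A485 (−0.57 ± 0.09, adjusted p = 0.00046). All but Nodal were called, 4 of 5 members, where 12.5% of genes were.

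In EpiLCs the 4 members fell again. Tdgf1 went from 465 and 436 CPM to 18.3 and 11.2 (−5.05 ± 0.21, adjusted p = 9.0e-06) and Gdf3 from 103 and 115 to 17.5 and 12.5 (−2.97 ± 0.16, adjusted p = 5.1e-07). Lefty1 went from 81.2 and 103 to 18.7 and 15.7 (−2.53 ± 0.25, adjusted p = 0.00044) and Lefty2 from 40.2 and 37.7 to 6.33 and 4.95 (−2.90 ± 0.23, adjusted p = 9.9e-06). Nodal went from 71.6 and 83.5 to 46.7 and 41.2 CPM, just under the fold threshold (−0.93 ± 0.09, adjusted p = 7.7e-07). The share of all genes called was 17.6%, and the Lefty1 call was lost without A485 library 1 (−2.67, adjusted p = 0.010) or 2 (−2.45, adjusted p = 0.013). Without DMSO library 1 (−1.07) or A485 library 1 (−1.03), Nodal passed the threshold. Foxh1 fell in both cultures (−1.95 ± 0.08 in serum cells and −2.74 ± 0.08 in EpiLCs). Of the lists, 2 of 36 rose and 2 fell in serum cells, and 4 of 34 rose and 6 fell in EpiLCs.

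In naive ESCs A485 lowered Tdgf1 and raised Lefty1, and in EBs it raised Gdf3 and lowered Cer1. Naive LSD1 KO cells had 483 and 520.0 CPM of Tdgf1 with DMSO and 83.9 and 87.7 with A485 (−2.61 ± 0.07, adjusted p = 2.2e-15). Lefty1 rose there, from 26.4 and 34.8 to 97.2 and 118 CPM (1.75 ± 0.19, adjusted p = 0.0013). Lefty2, with 322 and 423 CPM with DMSO and 64.2 and 95.3 with A485, had a difference of −2.28 ± 0.36 that edgeR did not call (adjusted p = 0.032) and DESeq2 did. Without A485 library 1 (−2.01) or 2 (−2.62) edgeR called it too. The 2 Lefty genes thus lay on opposite sides of no change without overlap between treatments. Gdf3 differed by −0.82 ± 0.07 and Nodal by −0.16 ± 0.08, and 2 of 5 members were called where 17.6% of 15708 genes were. In EBs Gdf3 rose, from 62.9 and 54.9 to 163 and 118 CPM (1.35 ± 0.16, adjusted p = 5.5e-05). Cer1 fell from 26 and 47 counts to 0 and 4, a fall lost without DMSO library 2 (adjusted p = 0.013). A count of 0 allows up to 3 counts in a library, for counting error alone. Tdgf1 (−0.56 ± 0.13), Nodal (−0.16 ± 0.14), Lefty1 (0.11 ± 0.14) and Lefty2 (0.25 ± 0.12) were not called, so 2 of 6 members were, where 13.8% of 16468 genes were. Whether the response to A485 differs between cultures was not tested, since each culture was fitted on its own. The study gave A485 to naive ESCs at a higher concentration than to EBs, so dose and culture cannot be told apart between them. In the lists, 12 of 37 genes fell in EBs and 1 rose, among them T (−5.45 ± 0.16), and in naive ESCs 8 of 33 fell and 3 rose, among them Nanog down (−1.56 ± 0.07) and Otx2 up (1.48 ± 0.10). General pluripotency markers moved with A485 too. Their sum was 1880.4 to 1915 CPM with DMSO and 1025 to 1071 with A485 in naive ESCs, and 1499 to 1563 and 731 to 753 in serum cells. In EpiLCs it was 1234 to 1311 and 494 to 592, and in EBs 801 to 929 and 1390.4 to 1510.2. The definitive endoderm markers of EBs went from 16.9 to 32.3 CPM with DMSO to 4.29 to 6.85 with A485. The part of these markers in the members' differences was not tested.

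**Figure D4:**
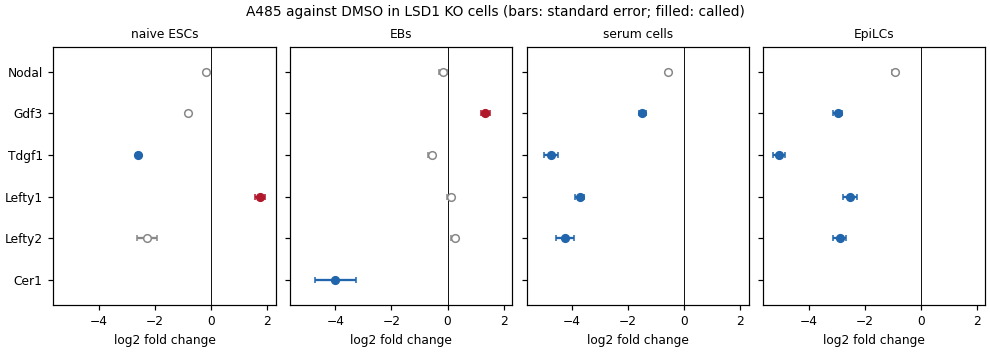
Log2 fold change of the members with A485 against DMSO in LSD1 KO cells (x axis, bars are SE), 1 panel per culture, with filled points for genes called by edgeR. Tdgf1 lies at −2.61 in naive ESCs, −0.56 in EBs, −4.75 in serum cells and −5.05 in EpiLCs, Lefty1 lies right of 0 in naive ESCs, and Cer1 is drawn only for EBs, where it passed the filter on low counts.

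The balance of the 2 Lefty genes followed the culture. Their levels were compared per kilobase of exons, a comparison chosen after the values had been seen and given as a description. The ratio of Lefty1 to Lefty2 was 0.0516 to 2.31 in the 67 naive ESC libraries, with 4 above 1. It was 0.833 to 3.42 in the 29 EB libraries, with 27 above 1. In all 8 serum libraries (2.67 to 6.36) and all 8 EpiLC libraries (3.09 to 5.16) Lefty1 was the more abundant. The 4 naive libraries above 1 were both of LSD1 KO with A485 and libraries 1 and 2 of LSD1Res with DOX. WT ESCs ranged from 0.108 to 0.526.

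**Figure D5:**
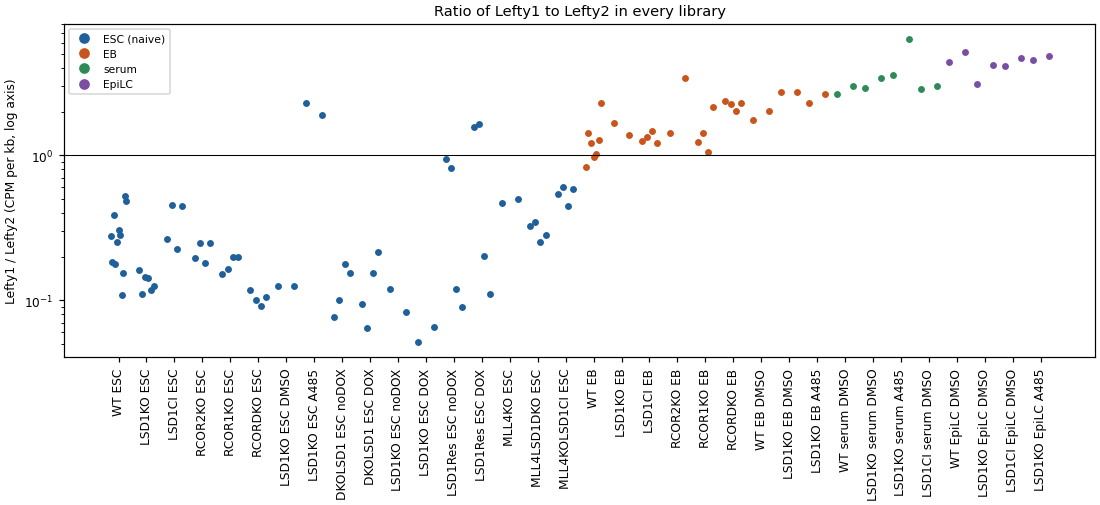
Ratio of Lefty1 to Lefty2 in CPM per kilobase (log axis) in every library, by group and coloured by culture, with a line at 1. In naive ESCs 63 of 67 libraries lie below the line, and in serum cells and EpiLCs all 16 lie above it.

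Ordered by group mean, each member gave a nearly continuous series in which neighbours overlapped. Nodal ran from 96.2 ± 7.99 CPM (SD, n = 2) in LSD1 KO serum cells to 4.25 ± 0.870 (n = 2) in DMSO-treated WT EBs, and 31 of 33 neighbouring pairs of groups overlapped. One of the 2 gaps lay between WT EpiLCs and RCOR2 KO EBs. Gdf3 ran from 172 ± 15.3 (n = 4) in DKO + LSD1 cells with DOX to 1.15 ± 0.121 (n = 2) in DMSO-treated WT EBs, with 27 pairs overlapping. Tdgf1 ran from 811 ± 24.6 (n = 2) in LSD1 KO serum cells to 14.7 ± 5.02 (n = 2) in LSD1 KO EpiLCs with A485, with 30 overlapping. The low end thus lay in EBs for the ligands and with A485 for the coreceptor. Lefty1 ran from 177 ± 33.7 (n = 2) in LSD1 KO EBs with A485 to 1.89 ± 0.468 (n = 4) in DKO + LSD1 cells with DOX (29 overlapping), and Lefty2 from 481 ± 186 (n = 4) in RCOR2 KO ESCs to 1.27 ± 0.495 (n = 2) in LSD1 KO serum cells with A485 (28 overlapping). Cer1 was highest in RCOR1 KO EBs, 69.2 ± 55.2 (n = 4), and was 0 in 59 of 67 naive ESC libraries, with at most 8 counts in the rest.

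Over the 34 group means of log2(CPM + 1), which share control lines and cultures, the genes most like each member among 13330 searched were these, given as a description. Nodal was most like L1td1 (Pearson r = 0.93), Pmm1 and Dppa2 (both 0.90). Gdf3 was most like Pou5f1 (0.96), which encodes the pluripotency factor OCT4, Platr10 (0.96) and Nexmif (0.94). For Tdgf1 they were Ggct (0.87), Fgf4 (0.85) and G3bp1 (0.84), for Lefty1 Trmo (0.80), Syt4 (0.79) and Srsf2 (0.78), and for Lefty2 Itpk1 (0.88), Mcm3 (0.88) and Gsta4 (0.87). Cer1 was most like Samd3 (0.99), Eya2 and Six3 (both 0.97). Among the members, Gdf3 and Nodal were the most alike pair (0.87), Lefty1 and Lefty2 gave 0.60, and Cer1 ran against the other 5 (−0.49 to −0.88), over the same 34 groups.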

How the data were processed

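RNA was sequenced from rRNA-depleted, directional libraries. Per the methods and labels, reads were trimmed with Trim Galore, aligned to mm9 with STAR 2.7.9a and counted by gene with reverse-stranded featureCounts, and the notes also list Picard 2.25.5 and deepTools 3.5.1. The deposited files hold raw counts for 25209 genes in each library. Depth per library is in the report. Of the gene counts from 2 to 39, 72.2 to 84.7% were even, so mates seem to have been counted separately, and a repeat of the fits on halved counts was among the alternatives. Counting intervals and the floor of 3 counts cover counting error only.

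CPM were computed on the total of each library. Differences were tested with edgeR 4.0.16 (R 4.3.3, robust quasi-likelihood test, TMM scaling, filterByExpr by group) on all genes of a fit, each fit holding the libraries of 1 culture or treatment set, with Benjamini-Hochberg adjustment, and the call rule of the report (0.01, and 1 on the log2 scale). SE is the log2 fold change divided by the root of F. The fits of untreated ESCs and of the cultures had a term for alignment. Cer1 passed the filter only in fits that hold EBs. The members were tested in 40 comparisons. The tests were first run on simulated counts with known changes. Named genes were the 6 members, the targeted genes, up to 3 called pathway genes with the smallest adjusted p per comparison, and the 3 genes most like each member. A gene that this rule names is not reported here. The members and the gene lists were chosen with earlier results of these data known.

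Same-numbered libraries deviated together, with a correlation over 0.1 for every pair among 3 or more, for LSD1Res with and without DOX (0.716 to 0.768), DKO + LSD1 with and without DOX (0.581 to 0.658) and MLL4/LSD1 DKO with MLL4KO/LSD1CI (0.173 to 0.554). The labels do not say what the numbers share. Alternatives were DESeq2 1.42.0, its size factors, no filter on low counts, halved counts, no Rn45s, a replicate block, the compared groups alone, no alignment term, WT libraries of the same alignment, parts of the WT ESC libraries (added after seeing the data) and each library left out in turn. Gene positions were those given with the deposited counts, and promoters were cut from mm9 at these positions. Exon tiles were mapped back to mm9 with minimap2 2.31-r1302. The exons and promoters of Lefty1 and Lefty2 were aligned with Biopython 1.88.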

Additional observations from a re-analysis of the deposited data

Results flagged for a closer look

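In 78 combinations of a member and a group of 4 to 10 libraries, 5 had a lowest or highest library set apart from the others by Dixon's 95% criterion, and chance alone flags about 1 in 20. In WT EBs, Nodal in library 3 (15.3 CPM) and Gdf3 in library 6 (5.11 CPM) were the highest of 7. Gdf3 in LSD1Res library 1 without DOX (188 CPM) and Lefty2 in LSD1Res library 3 with DOX (39.7 CPM) were the highest of 4. Lefty1 in RCOR1/2 DKO EB library 1 (137 CPM) was the lowest of 4.

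The response to loss of LSD1 differed between EBs and naive ESCs by an interaction test in edgeR, with a difference on the log2 scale of 3.51 for Nodal, 5.70 for Gdf3, 3.03 for Tdgf1, 6.75 for Lefty1 and 5.21 for Lefty2.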

How the results depend on the processing

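Of 211 values of a member in a comparison, 205 kept their direction and their side of the threshold with DESeq2 (the other 6 passed it), 210 with DESeq2 size factors, 210 without Rn45s, 208 without the filter on low counts and 207 on halved counts. The compared groups alone kept 194 of 204, and the fits that each left out 1 library 862 of 904 (34 lost a call, 8 gained one). Depth limits Cer1 most, which had 26 counts over all naive ESC libraries.

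The number of members called changed by over 1.5 times as follows, and the cause was not tested. In LSD1 KO ESCs it was 0 with DESeq2 size factors, with no filter, without Rn45s and with the compared groups only. In LSD1 CI ESCs it was 1 with no filter, 0 with the compared groups only, 0 with WT of the same alignment and 1 with WT libraries 4, 5, 8 and 9. In RCOR1/2 DKO ESCs it was 0 with the compared groups only, 0 with WT of the same alignment, 0 with WT libraries 4, 5, 8 and 9, and 2 with libraries 6 and 7 or with 10 and 11. With WT libraries 4, 5, 8 and 9 it was 2 in RCOR2 KO, 3 in MLL4 KO, 2 in MLL4/LSD1 DKO and 3 in MLL4KO/LSD1CI ESCs. RCOR1 KO ESCs had 2 with WT libraries 6 and 7 and 1 with 10 and 11, and MLL4KO/LSD1CI had 0 with 10 and 11. LSD1 KO against LSD1 CI ESCs had 1 with DESeq2 and 1 with no alignment term. DOX in LSD1Res gave 0 with the compared groups only, and DOX in DKO + LSD1 gave 2 with DESeq2 and 2 on halved counts. In serum cells LSD1 KO against WT had 1 with no filter, and LSD1 KO against LSD1 CI had 2 with DESeq2 and 2 on halved counts. WT serum cells against WT ESCs had 1 with DESeq2 and 1 on halved counts. WT EpiLCs against WT ESCs had 1 on halved counts, 0 with the compared groups only and 0 with WT of the same alignment. The serum minus ESC response had 1 with the compared groups only and 1 with WT of the same alignment, and the EpiLC minus ESC response 1 and 2. Smaller changes were 3 with DESeq2 for A485 in ESCs (Lefty2 gained), and for LSD1 KO against LSD1 CI EBs 6 with DESeq2 (Cer1 gained) and 5 with the compared groups only, where Gdf3 was lost (3.46, adjusted p = 0.018) and Cer1 gained (−3.16).

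With the replicate number as a block, 192 of 209 values kept direction and call. Where the numbers pair the samples, the block ended the Lefty2 call in LSD1Res (0 members called) and changed no other call. Elsewhere samples share only a number, and the block gave 0 called in LSD1 KO, 0 in LSD1 CI and 0 in RCOR1/2 DKO ESCs, 1 in RCOR2 KO and 1 in MLL4/LSD1 DKO ESCs, 1 for DOX in LSD1 KO, 2 for LSD1 KO against LSD1 CI serum cells, 1 for WT serum cells, 1 for WT EpiLCs and 1 for the serum minus ESC response. It ended the Tdgf1 calls in LSD1 KO EBs (4.44, adjusted p = 0.26) and MLL4KO/LSD1CI ESCs (−1.85, adjusted p = 0.019), and added Lefty1 in MLL4KO/LSD1CI ESCs (3.23), Lefty2 for A485 in ESCs (−2.30) and Cer1 in LSD1 KO against LSD1 CI EBs (−3.62). It reversed Lefty1 in LSD1 CI (1.18), RCOR1 KO (0.46) and RCOR1/2 DKO ESCs (0.47). Other reversals were Tdgf1 in LSD1 CI with WT libraries 4, 5, 8 and 9 (−0.13), Tdgf1 in RCOR2 KO (0.50) and MLL4/LSD1 DKO (0.23) with 10 and 11, and Lefty2 in MLL4/LSD1 DKO with 6 and 7 (−0.37).

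Leaving out 1 library changed the number called by over 1.5 times, to 0 in RCOR1/2 DKO ESCs, DOX in LSD1Res and DOX in DKO + LSD1, to 1 in LSD1 CI ESCs, MLL4 KO ESCs, LSD1 KO against LSD1 CI ESCs, A485 in EBs, LSD1 KO serum cells and LSD1 CI EpiLCs, to 3 in LSD1 KO against LSD1 CI EBs, to 0 to 2 in LSD1 KO against LSD1 CI serum cells and to 0 to 1 in WT EpiLCs against WT ESCs. Smaller changes were to 3 for A485 in ESCs (Lefty2 gained without either A485 library), to 5 in LSD1 KO EBs (Cer1 lost), to 4 in LSD1 KO against LSD1 CI EBs (Gdf3 lost) and to 3 to 5 for A485 in EpiLCs (Lefty1 lost or Nodal gained).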
